A study of Mus musculus with 6 samples.

Results

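The genes of the cytosolic ribosomal proteins were examined in mouse lung ECs 7 days after unilateral PNX, the removal of 1 lung, which is followed by growth of the lung that remains. A gene was taken as a member when its symbol named a protein of the large subunit (Rpl, Rplp) or small subunit (Rps, Rpsa) with at most an ending that marks a paralog. This rule found 85 genes, 52 of the large and 33 of the small subunit, among 24063 symbols, and used no measured value. RNA had been sequenced from ECs of C57BL6 male mice, labelled as 8 weeks old, in 3 libraries of mice with a sham operation and 3 of mice with PNX. Each library pooled 2 mice, and cells had been taken from whole lung with anti-CD31 magnetic beads, so that the preparation can hold other cells that carry CD31 or adhere to the beads. Replicates 1 and 2 of both groups are marked in the labels as re-used from an earlier deposit, and replicate 3 of both groups belongs to the later one. Replicates 1 and 2 lay close to counting error over all genes and far from replicate 3, and were added up, so that each group had 2 samples, an earlier and a later one. Nothing in the labels ties the libraries to separate isolations, and p-values measure only the spread between these samples. The paper itself counts the 3 libraries of a group as n = 3.

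Ribosomes are built from ribosomal RNA and about equal numbers of molecules of each ribosomal protein, and cells keep the mRNAs of these proteins at similar, high levels. Most of these mRNAs begin with a C followed by an unbroken stretch of pyrimidines, the 5′ terminal oligopyrimidine (TOP) tract, through which mTOR signaling and the protein LARP1 control their translation. Growing and dividing cells need more ribosomes, and the supply can be raised by transcription, by translation of stored TOP mRNAs or both. RNA sequencing of total cells sees the level of the mRNA and not its translation.

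The TOP tract was looked for around the annotated starts, because it is the feature that these genes share outside their products. A tract was a C followed by at least 5 letters that were C or T on the strand of the gene, 6 letters or more in all, which began within 20 bases of the start. RefSeq windows on GRCm38.p6 were at hand for 64 of the 85 members, and 41 of these (64.1%) held a tract in at least 1 window, as did 9239 of 27025 genes in the whole table (34.2%) and 29 of 68 mitochondrial ribosomal protein genes (42.6%). The following windows of 30 bases, from 15 before to 15 after the annotated start, belong to the members on which the results below turn, and capitals mark the tract within the window.
Rps27 (chr3:90213634-90213663, minus strand): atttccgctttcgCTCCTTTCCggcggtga
Rps24 (chr14:24490663-24490692, plus strand): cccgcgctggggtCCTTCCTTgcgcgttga
Rps2 (chr17:24720048-24720077, plus strand): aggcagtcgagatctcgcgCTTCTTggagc
Rpl39l (chr16:10170213-10170242, plus strand): ctcccaggCCTTTCCggatttccggtggtc
Rpl22l1 (chr3:28805493-28805522, plus strand): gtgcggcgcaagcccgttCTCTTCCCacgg
Rplp0 (chr5:115559452-115559481, plus strand): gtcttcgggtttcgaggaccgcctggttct
Rpsa (chr9:120127751-120127780, plus strand): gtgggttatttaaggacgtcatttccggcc
The tract lay across the annotated start of Rps27 and Rps24, began before that of Rpl39l and just after those of Rps2 and Rpl22l1. No stretch of this kind was found within the searched bases of Rplp0 or Rpsa, which says only that these letters are not there. The 41 tested members with a tract had a median log2 fold change of 0.07 after PNX, and the 22 without had 0.05.

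The ribosomal protein mRNAs were among the most abundant in these cells. Levels of different genes were compared by the deposited TPM, which is scaled to transcript length, for the transcript with the highest count of each gene. In sham ECs 79 of the 85 members lay above 100 TPM, and 73 were among the 500 genes of highest TPM. The median over the 84 members with any count was 547 TPM, against 12.5 TPM over the 16598 genes that passed the filter on low counts. In the large subunit Rplp1 (1452 TPM in sham), Rpl10 (995 TPM) and Rpl7 (915 TPM) were highest, and in the small subunit Rps15 (1156 TPM), Rps9 (1124 TPM) and Rps4x (1054 TPM). Rplp1 encodes a protein of the stalk, the arm of the large subunit that recruits elongation factors, and Rps15 a protein close to the site where the codon is read. The 6 members below 100 TPM were Rps15a (73.1 TPM), Rps4l (47.1 TPM), Rpl7l1 (36.3 TPM) and the tissue-restricted paralogs Rpl3l, Rpl39l and Rpl10l. Rps15a was not low in counts, with 10980 in sham replicate 1, where Rps16 had 9708 counts at 496 TPM. Its place here therefore rests on the scaling to transcript length. Rpl10l, known from testis, had a count of 0 in every library and could not be tested. Rpl39l, the testis-enriched paralog of Rpl39, lay at 0.133 TPM and Rpl3l, the heart and skeletal muscle paralog of Rpl3, at 0.571 TPM, whereas Rpl39 lay at 448 TPM and Rpl3 at 513 TPM.

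**Figure D1:**
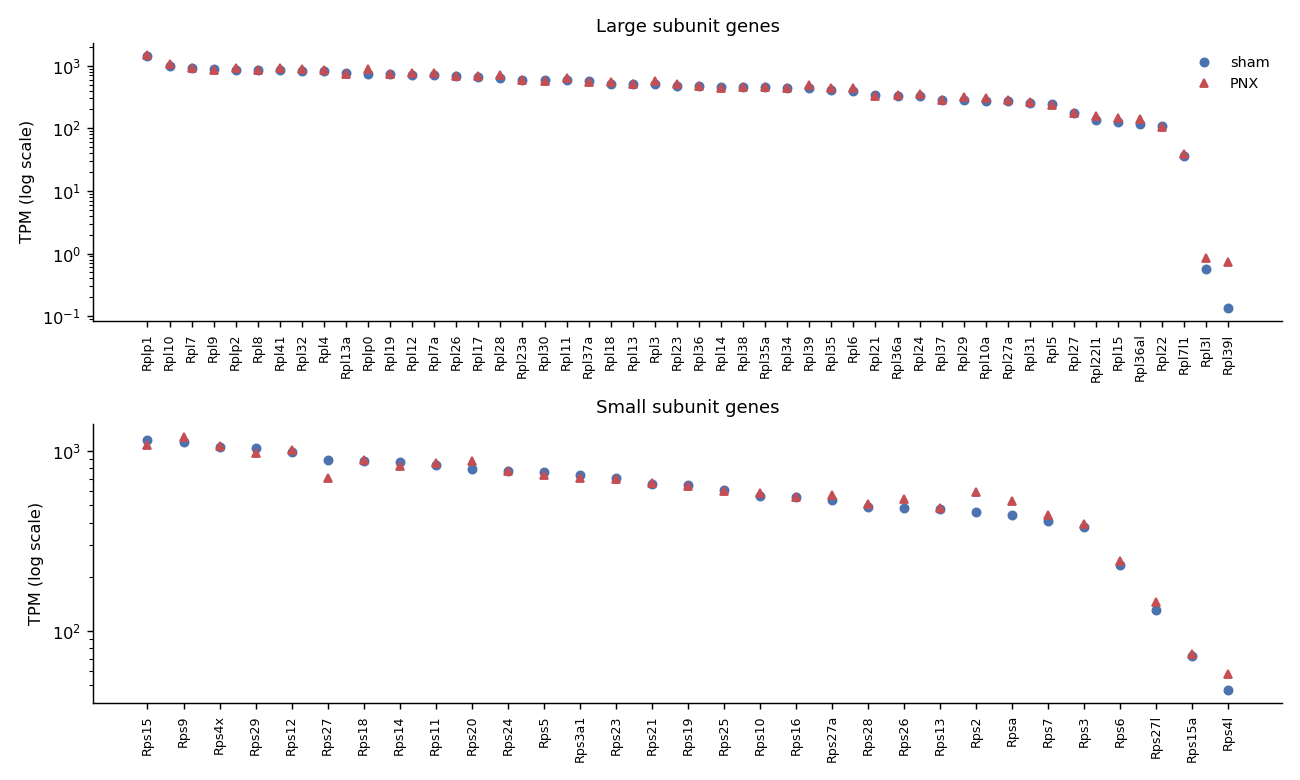
Deposited TPM (log scale) of 81 of the 84 tested members in sham (circles) and PNX (triangles), ordered by the sham level, for the transcript of highest count; each symbol is the mean of the earlier and the later deposit. Most members of both subunits lie between 100 and 1452 TPM with sham and PNX close together, and Rpl3l and Rpl39l lie below 1 TPM.

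The first comparison asked whether PNX changed the share of all counts that fell on ribosomal protein genes. Summed counts are not scaled to transcript length, so this share is not the part of all mRNA molecules. All members together took 1.50%, 1.52% and 1.78% of the counts in replicates 1, 2 and 3 of sham, against 1.68%, 1.66% and 1.73% in the same replicates of PNX. Both earlier PNX libraries were above both earlier sham libraries, and the later PNX library was below the later sham library. By the TPM of 1 transcript per gene the shares were 6.54%, 6.61% and 7.39% in sham and 7.05%, 6.97% and 7.37% in PNX, nearly equal in the later deposit. The values that follow are shares of counts. With replicates 1 and 2 added up, the share was 1.65% ± 0.194 (SD, n = 2) in sham and 1.70% ± 0.0452 (SD, n = 2) in PNX, a difference of 0.0557 percentage points that was smaller than the spread between the sham samples (exact permutation test, two-sided p = 1, with 0.333 the smallest p that 2 samples against 2 allow). With the 6 libraries taken singly, p was 0.4 by the same exact permutation test, where 0.1 is the smallest possible. The difference was 0.161 percentage points within the earlier deposit and -0.0497 within the later, and a test of the difference between deposits was not possible with 1 sample of each kind. The later deposit had the higher share in both groups, by 0.275 percentage points in sham and by 0.0639 in PNX.

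The balance between the subunits moved little. The ratio of large to small subunit counts was 1.40, 1.42 and 1.40 in sham and 1.41, 1.43 and 1.42 in PNX. The ranges of the single libraries overlapped, and the mean difference between the 4 samples was 0.0116 (exact permutation test, two-sided p = 0.333, the smallest possible). It was 0.00589 within the earlier deposit and 0.0173 within the later.

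**Figure D2:**
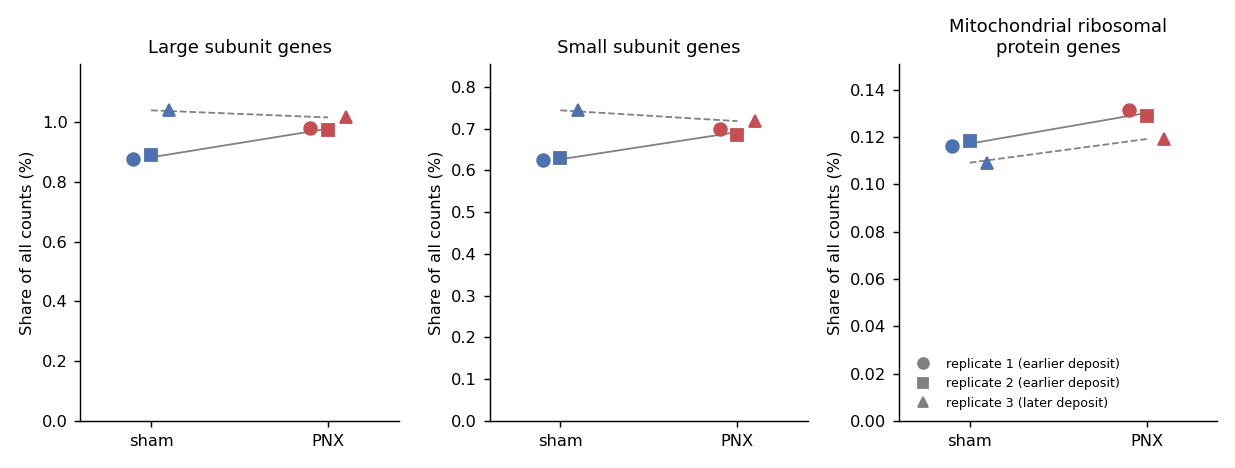
Share of all counts (%, axes from 0) taken by large subunit genes, small subunit genes and mitochondrial ribosomal protein genes in each library of sham and PNX ECs; lines join sham and PNX of the earlier deposit (solid, replicates 1 and 2 added up) and of the later (dashed). For both cytosolic subunits the solid line goes up and the dashed line goes down, while both lines go up for the mitochondrial genes.

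Each gene was then tested with edgeR's quasi-likelihood test on the 4 samples. At the study's limits, an adjusted p below 0.01 with a change of more than 1 on the log2 scale, 0 of the 84 members tested were called, and 0 had an adjusted p below 0.05. The same was true of the whole table, where the background was 0% by either rule, so that this fit sets the members apart from no other genes. On the same samples limma-voom gave 0 members and 0 genes at an adjusted p below 0.05, and DESeq2 gave 0 members where 5.21% of all genes passed. At an unadjusted p below 0.05 in edgeR stood 2 members, Rpl39l and Rps2, and 12.5% of all genes. The labels pair the groups by deposit, and with the deposit as a block 849 genes (5.12%) were called at the study's limits and 21.6% of genes reached an adjusted p below 0.05. Under this blocked fit 0 members were called at the study's limits, and 2 members, Rps2 and Rpl39l, both higher after PNX, reached the second limit, which 11.5% of all genes reached as higher. Rpl39l passed the filter on low counts only through its PNX samples, so its place among these is built in. DESeq2 with the block found 1 member, Rps2, where 15.4% of all genes passed. The 6 libraries were also taken singly with the replicate number as the block, which pairs replicates 1 and 2 one by one and not by deposit alone. This replicate block gave 20 members higher and 1 lower at an adjusted p below 0.05, beside backgrounds of 21.0% and 21.1% of genes. The paper used DESeq2 and counted each library as a sample. DESeq2 on the 6 libraries without a block, chosen after seeing the data, called 927 of 17150 genes at the study's limits, and 1 member.

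The changes of the members were small in size. The median log2 fold change was 0.07 for the 51 large subunit genes tested and 0.04 for the 33 small subunit genes, against -0.01 for all genes. In size, 74 of the 84 members changed by less than 0.2 on the log2 scale, where 46.9% of all genes did. Of the members, 58 had a positive (background 48.0%) and 26 a negative log2 fold change. This majority rested on the sham samples: without the later sham sample 79 were positive, and with it as the only sham sample 29 of the 83 then tested were. The standard error of a member's log2 fold change was between 0.124 and 0.639, with a median of 0.144, so that differences of this size could not be told from 0 with 2 samples a group.

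The deposits were then described separately. In the earlier deposit 80 of the 84 members were higher in PNX than in sham (50 of 51 large, 30 of 33 small), where 46.8% of all genes were. In the later deposit 41 were higher (26 large, 15 small), where 49.9% of all genes were. Every member higher in the later deposit was also higher in the earlier, 41 members being higher in both (background 36.0%) and 4 lower in both (background 39.3%), while 39 were higher in the earlier and lower in the later (background 10.8%). The median log2 ratio of PNX to sham was 0.11 for either subunit in the earlier deposit, and 0.01 for the large and -0.02 for the small subunit in the later. The order of the members was alike in both deposits: over the 82 members with at least 100 counts in every sample, Pearson's r between the log2 ratios was 0.75 and Spearman's rho 0.79, a description over genes of the same libraries. Over 12114 genes with as many counts r was 0.83 and rho 0.74. The members spanned a narrow range, with an SD of 0.10 in the earlier deposit and 0.13 in the later one, where all genes had 0.48 and 0.49.

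The deposits were also set against each other within each group. Between the sham samples 77 of 84 members were higher in the later deposit, at a median log2 ratio of 0.19, where 49.1% of all genes were higher. Between the PNX samples 57 were higher, at a median of 0.04, where 51.7% of all genes were. What the 2 deposits differed in was not tested.

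**Figure D3:**
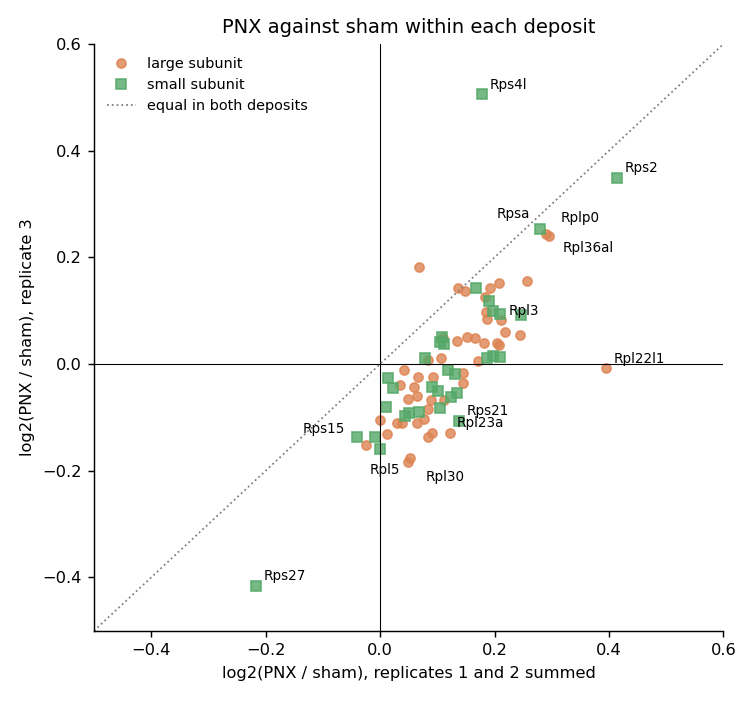
Log2 ratio of PNX to sham for 82 members within the earlier deposit (x axis, replicates 1 and 2 added up) and the later deposit (y axis, replicate 3), large subunit as circles and small subunit as squares, after TMM scaling. Nearly all points lie right of 0 on the x axis and below the dotted line of equality, and spread to both sides of 0 on the y axis; Rpl39l and Rpl3l, with few counts, are left out.

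Rps2 was the abundant member with the highest value after PNX. Its protein sits in the small subunit near the entry of the mRNA and is a substrate of the arginine methyltransferase PRMT3. Its level was 171, 175 and 192 CPM in the sham libraries and 233, 237 and 240 CPM in the PNX libraries, scaled by TMM over the 6 libraries. The PNX libraries lay close together, and all 3 were above all 3 sham libraries. The log2 fold change was 0.38 with a standard error of 0.13 (edgeR, adjusted p = 0.357), and 0.38 with the deposit as a block (edgeR, adjusted p = 0.0197). The ratio of PNX to sham was 1.33 in the earlier deposit (exact 95% interval 1.31 to 1.35) and 1.27 in the later (1.23 to 1.32), where these intervals and those that follow cover counting error only. Small nucleolar RNA genes lie within Rps2, the non-coding gene Snhg9 overlaps it on the other strand, and 11 annotated pseudogenes bear its name, so that its reads may be shared in part.

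Rps27 was the member with the lowest value. It encodes a zinc finger protein of the small subunit. Its level was 373, 370 and 444 CPM in the sham libraries and 336, 315 and 326 CPM in the PNX libraries. All PNX libraries were below all sham libraries, and it was the only member of which this was true (background 17.9%). The log2 fold change was -0.32 with a standard error of 0.15 (edgeR, adjusted p = 0.501), and -0.32 with the block (edgeR, adjusted p = 0.0617). The ratio of PNX to sham was 0.860 in the earlier deposit (95% interval 0.845 to 0.875) and 0.749 in the later (0.723 to 0.777). The symbol Rps27rt, which the rule leaves out, had in all 6 libraries exactly the count of the second Rps27 transcript, so both symbols were given the same reads and the level cannot be divided between them. Under the symbol Rps27rt the log2 fold change was -0.32 (edgeR, adjusted p = 0.478, and 0.0478 with the block). The paralog Rps27l, a target of p53, had 27.3, 25.6 and 21.9 CPM in sham against 31.2, 29.4 and 23.7 CPM after PNX, which overlapped, with a log2 fold change of 0.16 (edgeR, adjusted p = 0.825).

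Rplp0 and Rpsa had like values. Rplp0 forms the base of the stalk, on which copies of the Rplp1 and Rplp2 proteins are mounted. It had 350, 357 and 453 CPM in sham against 441, 438 and 526 CPM after PNX. In each deposit PNX was above sham, but the later sham library was above both earlier PNX libraries. The log2 fold change was 0.26 with a standard error of 0.20 (edgeR, adjusted p = 0.681, and 0.0894 with the block). Rpsa, a small subunit protein also known as the laminin receptor precursor, had 286, 282 and 374 CPM in sham against 352, 350 and 437 CPM after PNX, which overlapped in the same way. Its log2 fold change was 0.26 with a standard error of 0.21 (edgeR, adjusted p = 0.707, and 0.0814 with the block). The other stalk genes had lower values, with log2 fold changes of 0.01 for Rplp1 and 0.10 for Rplp2.

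**Figure D4:**
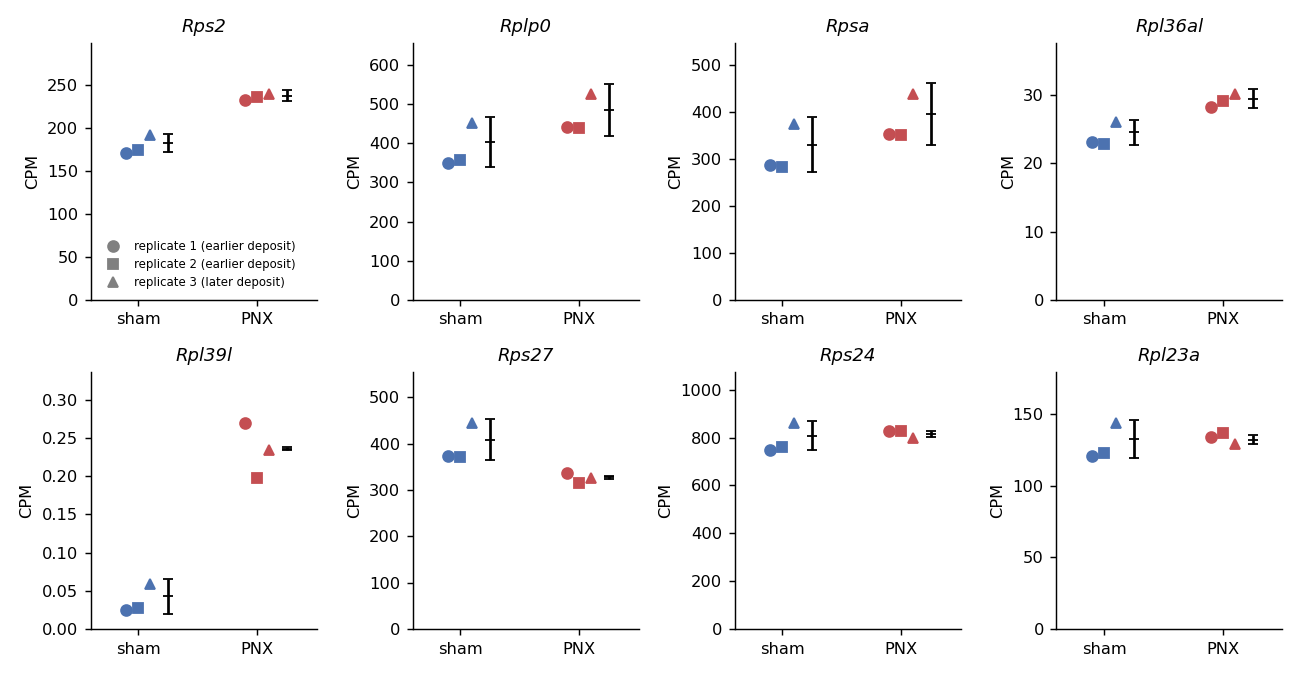
Level (CPM, TMM-scaled, axes from 0) of 8 members in each sham and PNX library, with the mean and SD of the earlier and later samples beside them as bars (n = 2). The Rps2, Rpl36al and Rpl39l points of PNX lie above all sham points and those of Rps27 below; Rplp0 and Rpsa are higher in PNX within each deposit but overlap between deposits, and Rps24 and Rpl23a lie above their sham partners in the earlier deposit and below in the later.

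The paralogs were described beside their partners. Rpl39l had 2 reads in each of the 3 sham libraries and 20, 13 and 7 in PNX replicates 1, 2 and 3. It passed the filter only through its PNX samples, so a difference was built into its being tested. The ratio of PNX to sham was 8.81 (95% interval 3.14 to 34.3) in the earlier deposit and 4.03 (0.767 to 39.7) in the later, where the interval includes equality. The fitted log2 fold change was 2.71 with a standard error of 0.64 (edgeR, adjusted p = 0.201, and 0.0222 with the block). Its partner Rpl39 had 64.8, 69.1 and 73.5 CPM in sham against 79.9, 78.3 and 75.2 CPM after PNX, and a log2 fold change of 0.14 (edgeR, adjusted p = 0.751). Even after PNX the Rpl39l level was 0.236 CPM, so that nearly all of the pair's mRNA was Rpl39.

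Rpl36al, a copy of Rpl36a on another chromosome, had 23.1, 22.8 and 26.0 CPM in sham against 28.3, 29.2 and 30.2 CPM after PNX. The groups did not overlap, and the log2 fold change was 0.27 (edgeR, adjusted p = 0.549, and 0.0689 with the block), against 0.05 for Rpl36a. The 2 proteins are nearly the same, and reads may be shared between their genes. Rpl22l1, which can take the place of Rpl22, had 24.5, 25.2 and 26.6 CPM in sham against 33.2, 33.3 and 26.0 CPM after PNX. The ratio of PNX to sham was 1.32 (95% interval 1.26 to 1.37) in the earlier deposit and 0.994 (0.902 to 1.10) in the later, and the difference between these was not tested. Rpl22 itself had a log2 fold change of -0.04. Rpl7l1, a protein of ribosome assembly related to Rpl7, had 39.1, 38.4 and 36.5 CPM in sham against 40.8, 42.2 and 40.6 CPM after PNX, which did not overlap, at a log2 fold change of 0.12 (edgeR, adjusted p = 0.787), with Rpl7 at 0.03. Rpl3l had 0.608, 0.461 and 0.683 CPM in sham against 0.498, 0.610 and 1.27 CPM after PNX, and its fitted log2 fold change of 0.54 (edgeR, adjusted p = 0.773) came from the last of these libraries, with -0.14 when it was left out. Rps4l, in RefSeq a transcribed pseudogene, had 22.9, 22.2 and 12.7 CPM in sham against 25.5, 26.5 and 17.7 CPM after PNX. The later deposit was the lower in both groups, and the log2 fold change was 0.30 (edgeR, adjusted p = 0.812), with Rps4x at 0.02. Rps4l lies within Tmtc1 on the other strand, and the strand setting of the counting is not given in the sources used here.

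Members often studied for roles outside translation or in disease had small values. Rps6, the protein phosphorylated by the S6 kinases downstream of mTOR, had 120, 121 and 139 CPM in sham against 136, 128 and 141 CPM after PNX, at a log2 fold change of 0.08 (edgeR, adjusted p = 0.896). Rpl5 and Rpl11, which together hold back the p53 inhibitor MDM2 when ribosome assembly fails, had log2 fold changes of -0.07 and 0.10. Rps19 and Rps24, both mutated in Diamond-Blackfan anemia, had -0.02 and 0.01. Rps24 had the highest summed CPM of all members, at 748, 762 and 860 CPM in sham against 827, 827 and 796 CPM after PNX. Its PNX range lay inside its sham range. This rank comes from summing, since reads were counted on each of its 3 transcripts. For the transcript of highest count it had 20170 counts in sham replicate 1, where Rpl4 had 33224. Gnb2l1 (Rack1), a signaling scaffold on the small subunit that is outside the rule, had 0.10.

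Among the lowest members after Rps27 were Rps15 (-0.09), Rps29 (-0.08) and Rps14 (-0.08), with adjusted p between 0.866 and 0.900 (edgeR) and with ranges that overlapped over the single libraries. Rps29 and Rps14 encode small subunit proteins, Rps29 with a zinc finger. Rps15 had 235, 239 and 243 CPM in sham against 236, 232 and 217 CPM after PNX, and its counting intervals lay below 1 in both deposits, as did those of Rps27. Intervals above 1 in both deposits were found for 20 members, among them Rps2, Rplp0, Rpsa, Rpl36al, Rps4l and Rpl3. No share over all genes is at hand for such intervals, so this number cannot be called high or low.

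In 18 members the counting intervals lay above 1 in the earlier deposit but below 1 in the later one, and no member showed the opposite. No share over all genes is at hand for this number either, so it cannot be called high or low. The intervals cover counting error only, and with counts as high as these they exclude 1 at small differences. The widest gaps among the 18 members were in Rpl23a, Rps21, Rpl30 and Rpl5. Rpl23a, which lines the exit of the nascent chain, had 121, 123 and 144 CPM in sham against 134, 137 and 129 CPM after PNX, at ratios of 1.09 (95% interval 1.07 to 1.11) and 0.915 (0.876 to 0.954). Rps21 had ratios of 1.10 (1.08 to 1.12) and 0.929 (0.883 to 0.977). Rpl30 had 1.03 (1.01 to 1.06) and 0.880 (0.842 to 0.920), and Rpl5 had 1.04 (1.02 to 1.05) and 0.885 (0.855 to 0.916). In Rpl23a, Rpl30 and Rpl5 it was the later sham library that stood highest of the 6.

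All 3 PNX libraries were above all 3 sham libraries in 12 of the 84 members, beside 18.8% of all genes, and below in 1, beside 17.9%. Among the 12 were Rpl15, Rpl24, Rpl35, Rpl36al, Rpl39, Rpl39l, Rpl7l1, Rplp2, Rps2 and Rps20, listed here after their values were seen.

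The mitochondrial ribosomal protein genes served as the closest comparison, since their products form the separate ribosome of mitochondria. Their share of all counts was 0.116%, 0.118% and 0.109% in sham and 0.131%, 0.129% and 0.119% in PNX. Each PNX library was above each sham library. The exact permutation test gave a two-sided p = 0.333 over the 4 samples and p = 0.1 over the 6 libraries taken singly, each the smallest possible. Of 77 genes 66 had a positive log2 fold change (background 48.0%), with a median of 0.12, and 0 reached an adjusted p below 0.05 (edgeR). With the block 3 did, all higher, beside 11.5% of all genes, and at an unadjusted p below 0.05 in the unblocked fit stood 3, beside 12.5%. They were higher in PNX in both deposits in 58 of 77 genes, where 41 of 84 cytosolic members and 36.0% of all genes were. Mrpl51 had the highest value, at 16.3 and 13.0 CPM in sham against 23.3 and 19.4 CPM after PNX, for the earlier and the later sample (log2 fold change 0.54, edgeR, adjusted p = 0.364, and 0.00795 with the block), and Mrpl9 the lowest, at -0.16. The most abundant, Mrps23, had 0.07. No test of the cytosolic against the mitochondrial genes was made, and the values stand side by side.

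Genes that make or serve ribosomes were taken from lists, of which 0 genes passed an adjusted p below 0.05 in the 4 samples without the block (edgeR, background 0%). The number that passed with the block is given for each, beside 11.5% of all genes as higher and 10.1% as lower. Of 76 ribosome assembly factors 6 were higher and 2 lower, at a median log2 fold change of 0.01. Npm1, an abundant nucleolar chaperone and the list's highest in counts, had 335 and 372 CPM in the sham samples and 437 and 464 CPM in PNX, at a log2 fold change of 0.35 (edgeR with the block, adjusted p = 0.0383). Rpf2, which helps load the Rpl5 and Rpl11 proteins, had 0.40 (edgeR with the block, adjusted p = 0.0374). Sbds, which releases a factor from the new large subunit, was the lowest, at 87.0 and 75.2 CPM in sham against 65.8 and 58.8 CPM after PNX (log2 fold change -0.38, edgeR with the block, adjusted p = 0.0159). Of 20 genes of RNA polymerase I and its factors 0 were higher and 1 lower, Taf1a (-0.30, edgeR with the block, adjusted p = 0.042), at a median of 0.02. Ubtf, the most abundant, had -0.06 and Polr2h, the highest, 0.33.

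Of 30 translation initiation and poly(A) binding factors 4 were higher with the block and 0 lower, at a median of 0.09. Pabpc4, a poly(A) binding protein, had 37.3 and 37.7 CPM in sham against 47.1 and 52.1 CPM after PNX (log2 fold change 0.40, edgeR with the block, adjusted p = 0.0169). Eif4a2, an RNA helicase, had the lowest value, -0.36 (edgeR with the block, adjusted p = 0.052), and Eif4g2, the most abundant, had 0.02. Of 8 elongation factors tested none passed with the block, at a median of 0.12. Eef1a1, the most abundant, had 0.12, Eef1g, the highest, 0.27 and Eef1e1, the lowest, -0.02. Of 13 other genes with TOP mRNAs 2 were higher and 0 lower, at a median of 0.11. Vim, which encodes an intermediate filament and is also a marker of mesenchymal cells, had 889 and 1114 CPM in sham against 1561 and 1859 CPM after PNX (log2 fold change 0.77, edgeR with the block, adjusted p = 0.004), and Snhg8, a host of a small nucleolar RNA, the lowest value, -0.35.

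Of 24 genes that control the transcription or translation of ribosomal proteins 2 were higher and 1 lower with the block, at a median of -0.09. A negative log2 fold change was found in 18 of them and in 8626 of 16598 genes tested. Myc, the transcription factor that drives ribosome synthesis, had 66.2 and 69.8 CPM in sham against 90.3 and 98.0 CPM after PNX (log2 fold change 0.47, edgeR with the block, adjusted p = 0.00687), and both PNX samples were above both sham samples. Mycl had the lowest value, -0.52, and Tsc2, an inhibitor of mTOR signaling and the most abundant, -0.14. Of 15 genes of ribosomal stress and p53 response 2 were higher and 2 lower, at a median of 0.18, with Eda2r at 0.71, Rrm2b at -0.53 and Plk2, the most abundant, at -0.17. Of 13 chaperones and importins of ribosomal proteins 4 were higher and 0 lower, at a median of 0.07, with Ipo9 at 0.44, Nacad at -0.46 and Nap1l1, the most abundant, at 0.20. Fau, whose protein joins a ribosomal protein to a ubiquitin-like protein and which the rule leaves out, had -0.03, and was higher after PNX in the earlier deposit but lower in the later one.

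**Figure D5:**
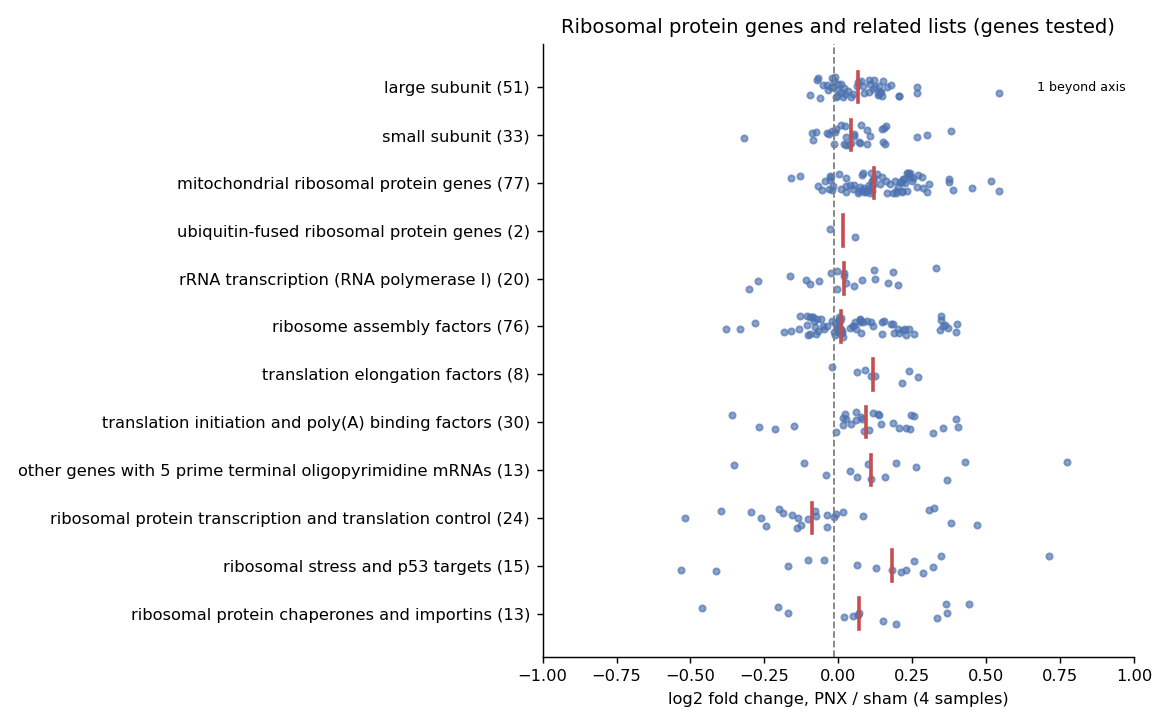
Log2 fold change of PNX against sham in the 4 samples (x axis) for each tested gene of the 2 subunits and the related lists (rows, number of genes in brackets); red bars mark the median of each list and the dashed line the median of all genes, -0.01. The cytosolic genes sit close around their medians of 0.07 and 0.04, with Rpl39l beyond the axis, and the mitochondrial genes have a median of 0.12.

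The summed levels of cell type markers differed between the groups in some lists. The ranges of the sham and PNX libraries were apart for the markers of dividing, alveolar, airway, mesenchymal and B cells, and overlapped for the others. Counts of markers higher or lower in both deposits stand beside 36.0% and 39.3% of all genes tested. The 12 endothelial markers summed to 9802 to 12014 CPM in the sham libraries and 8886 to 10156 CPM in PNX, with 8 of 12 lower and 1 higher in both deposits, and none was at 0. The 10 markers of dividing cells were all higher in PNX in both deposits, at 75.4 to 135 CPM in sham and 666 to 984 CPM in PNX. The 10 alveolar epithelial markers were all lower in both deposits (7269 to 9378 against 2581 to 6484 CPM), as were all 6 airway markers (2394 to 4336 against 1123 to 1181 CPM). Markers of fibroblasts and other mesenchymal cells summed to 1374 to 1696 CPM in sham and 3790 to 5159 CPM in PNX, with 5 of 11 higher and 2 lower in both deposits, and the 5 mesothelial markers were higher in both deposits (133 to 349 against 289 to 786 CPM). Of the macrophage and monocyte markers 9 of 11 were higher in both deposits (2395 to 4532 against 3437 to 4576 CPM), and 2 of 6 neutrophil markers (235 to 688 against 265 to 571 CPM), 3 of 6 platelet markers (36.4 to 51.7 against 51.1 to 55.9 CPM) and 6 of 7 erythroid markers (51.8 to 98.9 against 61.5 to 111 CPM). Lower in both deposits were 8 of 9 T and NK cell markers (62.0 to 111 against 39.3 to 75.6 CPM), and 7 of 7 B and plasma cell markers (186 to 252 against 124 to 175 CPM). In bulk RNA, fewer cells of a type and less RNA per cell cannot be told apart. The part of these markers' cells in the ribosomal protein values was not tested.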

How the data were processed

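RNA of lung ECs was sequenced in 3 sham and 3 PNX libraries. Age differs between the labels (8 weeks) and the methods, which give an older age. The authors deposited a count of each RefSeq transcript (33068 transcripts), with FPKM and TPM. STAR and mm10 are named in the submitters' processing notes, and no source used here gives the counting rule. The deposited FPKM values were not used, and the deposited TPM values entered only levels. Totals ranged from 29526989 to 81282871 counts. The transcripts of the 11 members with more than 1 lay within 0.602% of each other's highest count, so reads were counted on each, and intervals use the transcript of highest count.

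Counts were summed by symbol. Over all genes chi-square per degree of freedom between replicates 1 and 2 was 1.75 in sham and 1.57 in PNX (2.77 and 3.29 over members), against 67.9 to 86.4 with replicate 3, so both were added up although they lie above pure counting error. edgeR 4.0.16 (R 4.3.3, TMM, filterByExpr, glmQLFit, glmQLFTest, Benjamini-Hochberg) compared the groups, and standard errors are the log2 fold change over the root of F. DESeq2 1.42.0 and limma 3.58.1 were alternatives. Residual degrees of freedom were 2, and 1 with the block. The labels mark the deposits, and over 12114 genes the log2 ratio of later to earlier deposit in sham correlated with that in PNX (r = 0.80), so the block was printed beside results. Fits were tested on simulated data. Shares and ratios were compared by exact permutation tests (scipy 1.17.1). CPM of single libraries used TMM over the 6 libraries, and that of the 4 samples their own. Sequences were RefSeq's on GRCm38.p6 and overlaps came from GENCODE vM21. Of the members, 61 have annotated pseudogenes of their name, whose reads counting may share.

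A few genes that these rules name are not reported here. Members and lists were chosen with earlier results of these data known. Genes named were the 5 members at either end of the log2 fold changes, the 3 of highest sham TPM in each subunit, the paralogs with their partners, the stalk, Rpsa, Rps6, Rpl5, Rpl11, Rps19, Rps24 and Rack1, up to 4 members with opposite intervals in the deposits and, per related list, the most abundant, highest and lowest. The most abundant of a list is that of highest summed CPM in sham, which also rises with the number of transcripts of a symbol.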

Additional observations from a re-analysis of the deposited data

Results flagged for a closer look

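The ribosomal protein share of all counts differed between sham and PNX in opposite directions in the 2 deposits. In the earlier deposit both PNX libraries were above both sham libraries, and PNX minus sham was 0.161 percentage points. In the later deposit, with 1 library of each group, PNX minus sham was -0.0497 percentage points. The difference between the deposits was not tested. The groups held 3 libraries each, too few for a search for single samples far from the rest.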

How the results depend on the processing

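The count of members called at the study's limits stayed 0 in all settings but the following, each of which gave 1: the 6 libraries with the replicate block, replicates 1 and 2 alone, and DESeq2 on 6 libraries (chosen after seeing the data). In the same order, 920 of 16263, 1203 of 16322 and 927 of 17150 of all genes were called. As reported, Rpl39l was the only 1 of the members with a log2 fold change above 1 in size. It passed the filter on low counts only through its PNX samples. The count at an adjusted p below 0.05 was 0 by edgeR as reported. It became 2 with the deposit block (21.6% of all genes) and 2 with the 6 libraries taken singly (13.2%). With the 6 libraries and the replicate block it became 21 (42.1%), and with replicates 1 and 2 alone 74 (63.9%). DESeq2 with the deposit block gave 1 (15.4%). The deposit block under DESeq2 size factors, library size alone or TMM without the members gave 2 each (19.3%, 19.6% and 19.0%). The deposit block with the transcript of highest total gave 3 (21.8%) and DESeq2 on 6 libraries 7 (20.3%), both chosen after seeing the data. The median of the small subunit moved from 0.04 to 0.14 with replicates 1 and 2 alone, and that of all members from 0.05 to 0.14. Leaving out libraries in turn kept the calls at the study's limits at 0 and those at an adjusted p below 0.05 at 0, with medians from -0.042 to 0.13 (large) and from -0.073 to 0.15 (small). As libraries were left out, PNX minus sham ranged from -0.0817 to 0.193 percentage points for the ribosomal protein share of all counts, below 0 when sham replicates 1 and 2 were left out together (a setting added after seeing the data), and from 0.00626 to 0.0169 for the ratio of large to small subunit counts. Where replicates 1 and 2 of a group were left out together, the lone sample was assumed to vary like the other group. The cause of these moves was not tested.

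Single members turned in direction, and none of them had passed an adjusted p of 0.05 as reported. Rps19 became 0.0075 with 6 libraries, 0.011 with 6 libraries and the replicate block and 0.0046 with DESeq2 on 6 libraries. Rpl23a became 0.043, 0.049 and 0.041 in these settings, and with the deposit block 0.0035 by library size and 0.0020 by the transcript of highest total. Rps24 became -0.0023 under upper quartile scaling. With replicates 1 and 2 alone Rps29 became 0.024, Rps14 0.016, Rpl22 0.062, Rpl5 0.077, Rps19 0.075, Rpl23a 0.15 and Rpl30 0.071, of which the values of Rpl22, Rpl5, Rps19, Rpl23a and Rpl30 were past an adjusted p of 0.05 in that fit. As libraries were left out, log2 fold changes ranged from -0.23 to 0.075 for Rps29, -0.16 to 0.010 for Rps14, -0.045 to 0.79 for Rps4l, -0.082 to 0.0085 for Rpl22, -0.23 to 0.10 for Rpl5, -0.12 to 0.072 for Rps19, -0.12 to 0.11 for Rpl23a, -0.21 to 0.074 for Rpl30, -0.14 to 1.09 for Rpl3l, -0.077 to 0.11 for Rplp1, -0.13 to 0.19 for Rps4x, -0.066 to 0.37 for Rpl3, -0.057 to 0.27 for Gnb2l1, -0.037 to 0.21 for Rpl10, -0.048 to 0.11 for Rpl7, -0.073 to 0.28 for Rps9, -0.073 to 0.18 for Rpl36a, -0.024 to 0.18 for Rps6, -0.0069 to 0.22 for Rpl11, -0.081 to 0.10 for Rps24, -0.018 to 0.31 for Rps27l and -0.14 to 0.17 for Rps21.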
